A study of Mus musculus with 8 samples.

Results

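A set of 10 genes that neurons switch on when they fire is described here in mouse vagal ganglia: the transcription factor genes Egr1, Egr2, Egr3, Egr4, Nr4a1, Nr4a2, Nr4a3 and Npas4, and the effector genes Arc and Nptx2. They were taken by name, as the activity genes outside the AP-1 family, and all 10 were found by GENCODE M21 symbol among the 55335 genes of the count table. RNA was measured in ganglia of WT mice treated with HDM (in this field, house dust mite, an inhaled allergen), with saline-treated WT mice set against them. Each group had 4 libraries, each a pool of 6 to 8 ganglia from 3 to 4 animals, taken 1.5 h after challenge number 4, and libraries with the same replicate number (1 to 4) share a batch. The labels give neither the strain, sex or age of the mice nor how many cells of each kind a pool held.

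Activity genes of this kind are transcribed within minutes of membrane depolarisation or growth factor signalling, without need of new protein. Calcium entry and the MAP kinase cascade act on CREB, which binds the cAMP response element (CRE), and on SRF, which binds the CArG box. The Egr genes encode zinc finger factors, the Nr4a genes orphan nuclear receptors, and Npas4 a bHLH-PAS factor that responds to calcium entry with particular selectivity. Arc encodes a capsid-like protein that promotes the internalisation of AMPA-type glutamate receptors, and Nptx2 a secreted pentraxin that clusters them. Several of these genes are also used outside neurons. Egr2 drives the myelination programme of Schwann cells, and Egr1 and Nr4a1 are induced in macrophages, endothelium and fibroblasts.

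HDM libraries held 23.95 to 26.67 mega-counts and saline libraries 26.87 to 31.28, so a count of 0 allows up to 0.125 CPM (counts per mega-count of scaled library size) at the lowest depth, counting error only. The ganglia carried the defining markers of their tissue, with 6 of 6 neuron, 3 of 3 nodose and 3 of 3 jugular markers detected. Summed neuron markers were at 6900 to 7480 CPM in HDM and 6550 to 6790 CPM in saline, so the groups did not overlap in this sum. By gene, 4 of the 6 neuron markers had a positive log2 fold change of HDM over saline, beside 8551 of all 17618 tested genes. In the edgeR test given below 1 of the 6 passed, beside 1.38% of all tested genes. With the replicate number as a block 3 passed, beside 4.05%. DESeq2 also called 3, beside 7.38% of all genes it gave an adjusted p. After a GC correction 0 passed, but there 0 of all tested genes did. HDM 4 and saline 1 stood apart from the rest. HDM 4 had 799 CPM of sympathetic neuron markers, against 269 to 297 CPM in HDM 1 to 3 and 123 to 354 CPM in saline. Of 5 blood and neutrophil markers, Hba-a1, Hbb-bs and Alas2 passed the filter on low counts given below. The neutrophil markers S100a8 and S100a9 did not. In the sum of all 5, saline 1 had 211 CPM, against 38.4 to 66.1 CPM in HDM and 59.8 to 64.0 CPM in saline 2 to 4. It was also the highest library in fibroblast, endothelial and macrophage markers, with 914, 102 and 82.9 CPM, where HDM had 611 to 664, 72.1 to 82.9 and 51.1 to 68.0 CPM and saline 2 to 4 had 649 to 749, 65.6 to 77.8 and 51.7 to 64.9 CPM. Nodose markers were at 380 to 516 CPM in HDM and 383 to 441 CPM in saline, jugular markers at 200 to 256 and 228 to 263 CPM, satellite glia markers at 2700 to 3050 and 2510 to 3050 CPM, and mural cell markers at 88.5 to 110 and 96.7 to 110 CPM. No marker was at 0 in every library.

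The comparison asked whether activity genes differed in ganglia shortly after allergen exposure, and 0 of the 9 tested genes passed in either direction (edgeR quasi-likelihood test with Benjamini-Hochberg adjustment over 17618 genes, adjusted p under 0.05). Over all tested genes, 1.38% passed (1.23% higher and 0.159% lower). Egr4 was below the filter on low counts and was not tested. Nr4a2 alone had an unadjusted p under 0.05 in the edgeR fit by group, as did 3190 of the 17618 genes. The limma-voom fit also called 0 of the 9, beside 1.21% of all genes. DESeq2 called none of the 6 to which it gave an adjusted p, beside 7.38% of all such genes. Each of these fits gave 1 of the 9 an unadjusted p under 0.05, as it did 3176 of all genes in limma-voom and 2956 in DESeq2. With the replicate number as a block the count was again 0, where 4.05% of all genes passed (3.01% higher and 1.03% lower). In each of the 9 genes the HDM and saline libraries overlapped, whereas 10.6% of all tested genes had groups that did not overlap. The median log2 fold change of the 9 genes was 0.03, and 5 of them had a positive value. Over all 17618 tested genes the median was -0.01, and 8551 had a positive value.

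The widest 95% intervals belonged to Egr1, whose fold of HDM over saline lay between 0.635 and 1.24, and Nr4a3, between 0.958 and 1.72. The narrowest belonged to Nr4a1, between 0.889 and 1.09, and Nptx2, between 0.948 and 1.18. No interval of the 9 tested genes reached a fold of 2 or of 0.5. Since whole ganglia were sequenced, fewer cells of a type and less RNA per cell cannot be told apart.

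**Figure D1:**
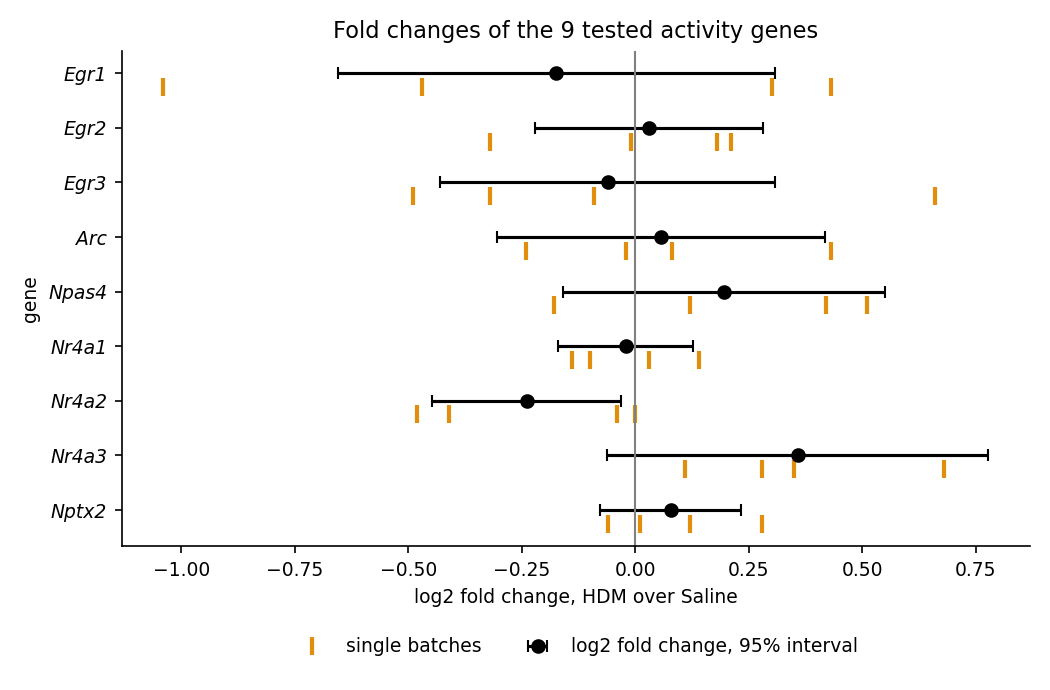
Log2 fold change of HDM over saline (horizontal axis) for the 9 tested activity genes (vertical axis). Black points and bars are edgeR estimates with 95% intervals, and orange ticks are the log2 ratios within each of the 4 batches. The batches fell on both sides of 0 for Egr1, Egr2, Egr3, Arc, Npas4, Nr4a1 and Nptx2, and the 4 batch values of Nr4a3 lay between 0.11 and 0.68.

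To compare genes with one another, counts were also scaled per kilobase of exon (RPKM). On this scale Nptx2 was the most abundant of the 10, with a mean of 15.4 RPKM over the 8 libraries (12.6 to 16.6), and Nr4a1 came next with 8.82 RPKM (7.99 in the lowest library). Egr2 had 4.29 RPKM, Nr4a2 2.84, Egr3 2.08 and Egr1 1.79. Arc and Npas4, both often used as markers of firing neurons, were lower, at 0.856 and 0.624 RPKM, followed by Nr4a3 at 0.503 and Egr4 at 0.155. Most neighbours in this order kept their places in 8 of 8 libraries. The exceptions were Egr3 and Egr1, with Egr3 the higher in 6 of 8 libraries, and Npas4 and Nr4a3, with Npas4 the higher in 6 of 8, so neither pair differed beyond its spread. Ranges over libraries also overlapped between Egr2 and Nr4a2, Nr4a2 and Egr3, and Arc and Npas4.

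**Figure D2:**
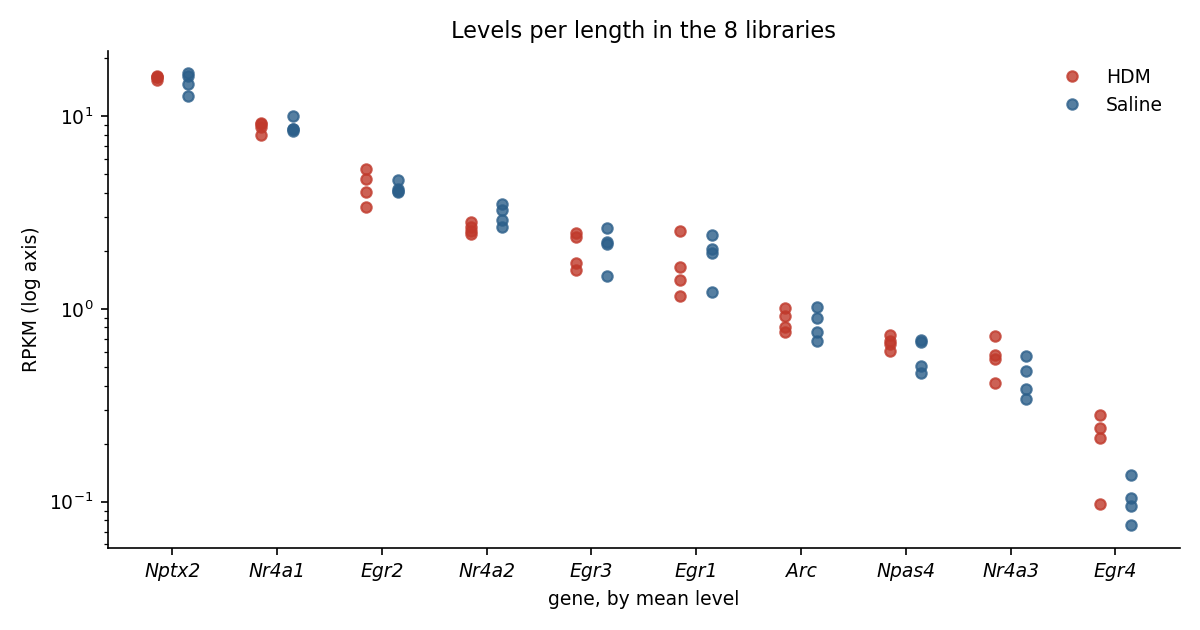
Level per length in RPKM (vertical log axis) of the 10 activity genes, ordered by mean level from left to right, with 1 point for each library (red, HDM; blue, saline). Levels span 15.4 RPKM for Nptx2 to 0.155 RPKM for Egr4, and the groups overlap in every gene.

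The Nr4a genes encode nuclear receptors that bind the NBRE, an element found in the promoters of their targets. The 250 bases before the RefSeq start of each are shown because CREB is known to induce all 3 genes through CREs. The windows are chr15:101266596-101266845 on the plus strand for Nr4a1, chr2:57124004-57124253 on the minus strand for Nr4a2 and chr4:48045055-48045304 on the plus strand for Nr4a3 (GRCm38.p6, 5′ to 3′). That of Nr4a1 lies wholly and that of Nr4a3 in part inside the wider GENCODE span of the gene. Capitals mark the core of the CRE, TGACG or its reverse complement CGTCA.
Nr4a1: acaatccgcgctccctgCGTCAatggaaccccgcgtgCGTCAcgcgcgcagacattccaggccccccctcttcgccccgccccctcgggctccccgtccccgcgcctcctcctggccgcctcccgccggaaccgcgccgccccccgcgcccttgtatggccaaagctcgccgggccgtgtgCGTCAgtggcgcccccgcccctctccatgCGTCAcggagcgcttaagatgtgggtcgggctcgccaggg
Nr4a2: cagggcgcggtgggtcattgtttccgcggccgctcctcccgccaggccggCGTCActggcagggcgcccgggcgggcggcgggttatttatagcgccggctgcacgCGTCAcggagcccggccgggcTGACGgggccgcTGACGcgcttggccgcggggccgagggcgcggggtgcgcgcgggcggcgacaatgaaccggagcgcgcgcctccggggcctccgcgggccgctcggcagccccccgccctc
Nr4a3: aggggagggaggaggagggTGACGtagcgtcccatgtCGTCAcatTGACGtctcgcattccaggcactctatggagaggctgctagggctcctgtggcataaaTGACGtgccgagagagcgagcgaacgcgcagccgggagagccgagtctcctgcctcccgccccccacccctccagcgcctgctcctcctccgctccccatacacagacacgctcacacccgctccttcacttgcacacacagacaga

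Each of the 3 windows held 4 CRE cores, and 0.137% of the 32851 promoter windows in the RefSeq table held 4 or more (3.9% held at least 2 and 17.8% at least 1, with both strands searched). In Nr4a1 2 of the 4 started 69 and 40 bases before the start, and the other two began 233 and 213 bases before it. Those of Nr4a2 began 200 to 111 bases and those of Nr4a3 231 to 147 bases upstream. The full CRE, TGACGTCA, which holds 2 overlapping cores, was in none of the 3 windows and in 1.55% of all windows. The NBRE, AAAGGTCA, was also in none of the 3 and in 1.34% of all windows.

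The 3 Nr4a genes had estimates of different sign, and 0 of the 3 passed the test. Nr4a2 (ENSMUSG00000026826, GRCm38 chromosome 2, 57106830 to 57124003, minus strand), the receptor best known from dopamine neurons, had 10.2, 9.90, 11.4 and 10.8 CPM in HDM replicates 1 to 4, against 14.2, 13.2, 11.7 and 10.8 CPM in saline replicates 1 to 4. The HDM pools were close together, while saline 1 and 2 were high and saline 4 lay within the HDM range. Its mean was 10.6 ± 0.64 CPM in HDM and 12.5 ± 1.53 CPM in saline (SD, n = 4 each), a log2 fold change of -0.24 (SE 0.097, edgeR adjusted p = 0.216, unadjusted p = 0.0275; 0.226 adjusted with the replicate block). An exact permutation test over the 8 libraries gave p = 0.0571 (2-sided), where 0.0286 is the smallest that 4 against 4 allows. The batch values were -0.48 and -0.41 in batches 1 and 2, and -0.04 and 0.00 in batches 3 and 4. Without saline 1 the log2 fold change was -0.18, and without HDM 4 and saline 1 together it was also -0.18. The direction was the same in all 23 alternatives, from -0.315 to -0.156, and the gene passed in 0 of them.

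Nr4a3 (ENSMUSG00000028341, chromosome 4, 48045153 to 48086447, plus strand) had 4.31, 2.47, 3.46 and 3.28 CPM in HDM, against 3.39, 2.29, 2.84 and 2.04 CPM in saline. The HDM library was the higher one in 4 of 4 batches, but HDM 2 lay below saline 1 and saline 3. Nr4a3 averaged 3.38 ± 0.75 CPM in HDM and 2.64 ± 0.60 CPM in saline, a log2 fold change of 0.36 (SE 0.20, edgeR adjusted p = 0.351, or 0.21 with the replicate block). This was the largest positive value among the 9 tested genes, and it rested on 342 counts in HDM and 310 in saline. It was 0.22 without HDM 1 and 0.49 without saline 1, and 0.51 without HDM 4 and saline 1 together.

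Nr4a1 (ENSMUSG00000023034, chromosome 15, 101254269 to 101274795, plus strand), also called Nur77, had 32.0, 28, 32.3 and 30.6 CPM in HDM, against 35.2, 30.1, 29.4 and 30.1 CPM in saline. Apart from saline 1, the highest, the libraries were intermixed. Means were 30.7 ± 1.95 CPM in HDM and 31.2 ± 2.71 CPM in saline, with a log2 fold change of -0.02 (SE 0.069, edgeR adjusted p = 0.906). None of the 3 genes overlaps another annotated gene, and neither does any of the other 7.

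**Figure D3:**
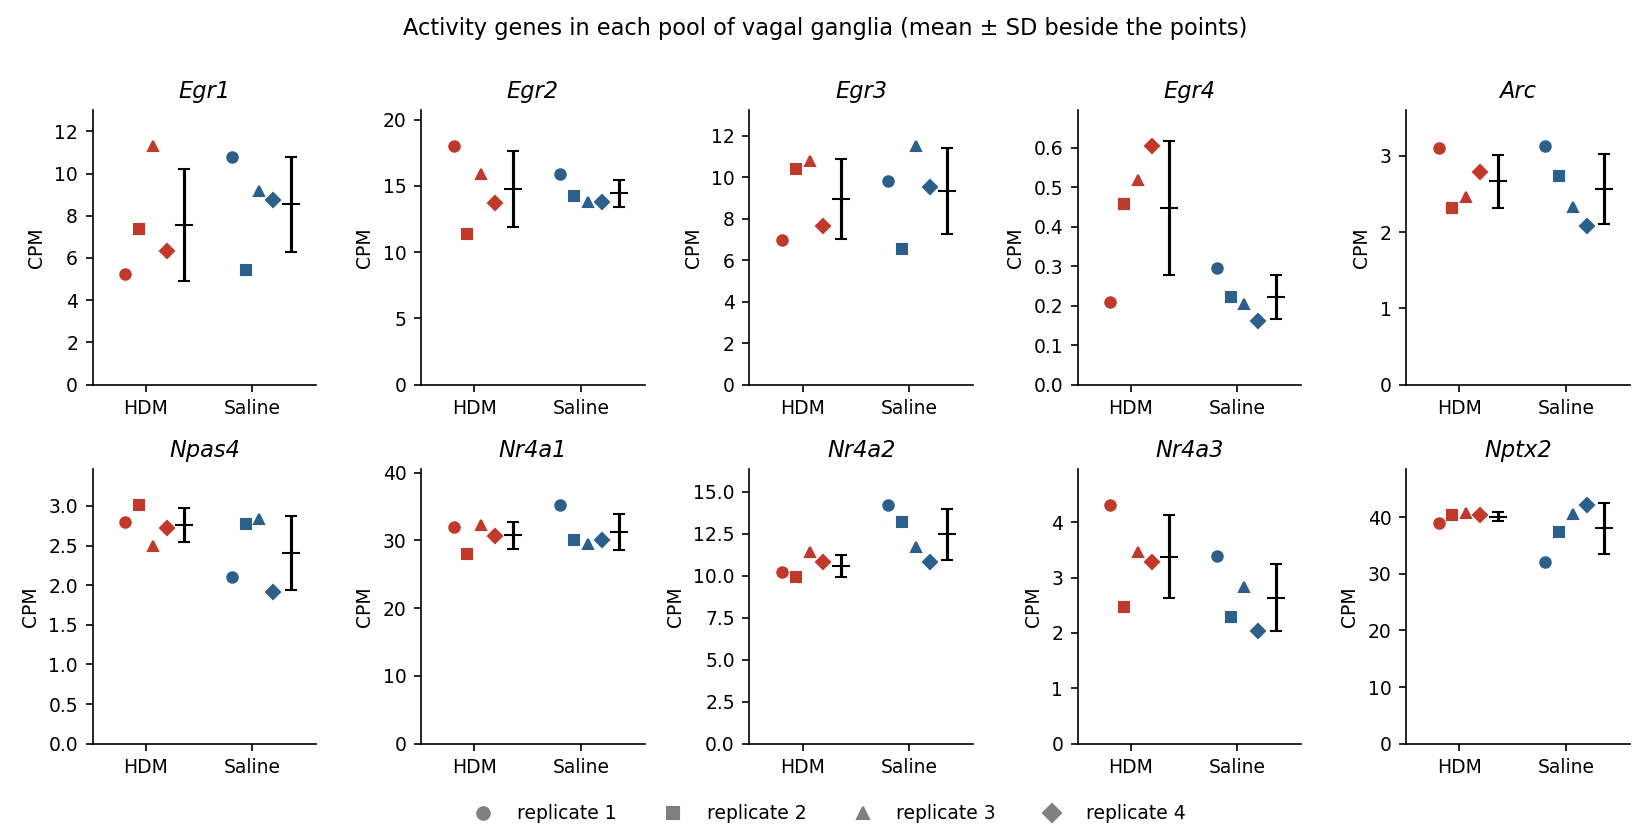
CPM (vertical axes, each from 0) of the 10 activity genes in the HDM and saline libraries, with symbols for replicates 1 to 4, which share a batch between groups, and bars for the mean ± SD of each group (n = 4). The groups overlap in every panel. Nr4a2 is between 9.90 and 11.4 CPM in HDM and between 10.8 and 14.2 CPM in saline, and Egr4 stays at or below 0.604 CPM.

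The Egr genes encode factors with near-identical zinc finger domains that bind a shared GC-rich element. Egr1 (ENSMUSG00000038418, chromosome 18, 34859823 to 34864984, plus strand), the most widely induced of them, had 5.23, 7.35, 11.3 and 6.34 CPM in HDM, against 10.8, 5.45, 9.17 and 8.76 CPM in saline. Both groups held low and high pools, with HDM 1 and saline 2 lowest and HDM 3 and saline 1 highest. The log2 fold change was -0.17 (SE 0.22, edgeR adjusted p = 0.724), with means of 7.55 ± 2.64 CPM in HDM and 8.54 ± 2.24 CPM in saline. The batch values ran from -1.04 in batch 1 to 0.43 in batch 2. The estimate was -0.43 without HDM 3, -0.34 without saline 2 and -0.04 without HDM 1, and 0.03 without HDM 4 and saline 1 together. Set against summed neuron, macrophage, endothelial and fibroblast markers over the 8 libraries, Egr1 had r between -0.51 and 0.33 and rho between -0.41 and 0.36, and 0 of these 4 pairs passed (exact permutation tests, adjusted p = 0.633 for each r and 0.713 to 0.758 for rho). Without saline 1 the r with macrophage, endothelial and fibroblast markers turned negative, at -0.10, -0.16 and -0.16, and that with neuron markers was -0.42. It was -0.78 without saline 2 and -0.38 without HDM 1. Without HDM 1 and saline 2 together the r was -0.77 with neuron markers and 0.47, 0.33 and 0.64 with the macrophage, endothelial and fibroblast sums.

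Egr3 (ENSMUSG00000033730, chromosome 14, 70077203 to 70082614, plus strand), required for the development of muscle spindles, had 6.99, 10.4, 10.8 and 7.63 CPM in HDM, against 9.83, 6.53, 11.5 and 9.54 CPM in saline. The lowest 2 libraries were again HDM 1 and saline 2, and the groups overlapped. HDM over saline gave a log2 value of -0.06 (SE 0.17, edgeR adjusted p = 0.889), with means of 8.96 ± 1.93 CPM in HDM and 9.36 ± 2.08 CPM in saline (SD, n = 4 each).

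Egr1 and Egr3 varied between pools well beyond counting error in both groups. The variance of the Egr1 counts was 22.9 times the counting variance within HDM and 17.7 times within saline, and that of Egr3 10.4 and 14.1 times. In 1 group only, Egr2 and Nptx2 reached like values, Egr2 with 13.8 times in HDM and 1.90 in saline and Nptx2 with 0.424 in HDM and 14.7 in saline. In the edgeR fit the biological coefficient of variation, the spread between pools beyond counting error, was 21.9% for Egr1 and 16.7% for Egr3, beside 11.8% and 11.4% for genes of their abundance. Nr4a1 and Nptx2 had 6.85% and 7.20%, close to the 6.98% and 6.48% of their abundance class.

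Egr2 (ENSMUSG00000037868, chromosome 10, 67535475 to 67542188, plus strand), known as Krox20, had 18, 11.4, 15.9 and 13.7 CPM in HDM, against 15.9, 14.2, 13.8 and 13.8 CPM in saline. HDM 1 and HDM 2 were the highest and the lowest of all 8 libraries, and the saline pools lay between them. Between the groups the log2 fold change was 0.03 (SE 0.12, edgeR adjusted p = 0.921), with 14.7 ± 2.84 CPM in HDM and 14.4 ± 0.99 CPM in saline. Because Egr2 is the myelination factor of Schwann cells, it was set beside 9 myelinating Schwann cell markers, whose summed level was 2520 to 2760 CPM in HDM and 2600 to 3200 CPM in saline. Over the 8 libraries Pearson's r between Egr2 and this sum was 0.20 (exact permutation p = 0.633) and Spearman's rho 0.13 (exact permutation p = 0.758), with the same p after adjustment over 5 gene and marker pairs. This r moved to 0.51 without HDM 1 and HDM 2, to 0.70 without HDM 1 alone and to -0.16 without HDM 2 alone, so it rests on these libraries. The RefSeq table lists 5 start sites of Egr2, and 4 of the 5 windows hold a CArG box, as do 1.47% of all windows. The last 3 windows overlap one another and share 1 box, so these are 2 distinct boxes.

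Egr4 (ENSMUSG00000071341, chromosome 6, 85511121 to 85513589, minus strand), whose induction in neurons is rapid and brief, was at the edge of detection. It had 5, 12, 13 and 16 counts in HDM (0.209, 0.457, 0.517 and 0.604 CPM), against 8, 7, 6 and 5 counts in saline (0.295, 0.223, 0.205 and 0.162 CPM). HDM 2, 3 and 4 were above every saline library, and HDM 1 was below 2 of them. The summed counts were 46 in HDM and 26 in saline, a ratio of 2.06 after scaling, with an exact 95% interval of 1.25 to 3.47 that covers counting error only. Between pools the difference was not resolved. An exact permutation test gave p = 0.0857 (2-sided), and when the filter was removed edgeR gave a log2 fold change of 1.00 with an adjusted p = 0.311. The promoter window, chr6:85513590-85513839 on the minus strand, is shown because Egr4 had the largest ratio of the 10, with CRE cores in capitals as above.
Egr4: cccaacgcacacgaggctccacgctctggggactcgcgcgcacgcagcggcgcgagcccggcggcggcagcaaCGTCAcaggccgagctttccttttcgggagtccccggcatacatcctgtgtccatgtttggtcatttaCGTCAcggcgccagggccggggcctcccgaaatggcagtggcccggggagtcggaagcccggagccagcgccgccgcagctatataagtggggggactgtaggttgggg

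It held 2 CRE cores, which began 177 and 109 bases before the start, and the binding element of the Egr factors, GCGTGGGCG, was in none of the printed windows and in 0.536% of all windows.

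Npas4 (ENSMUSG00000045903, chromosome 19, 4984355 to 4990316, minus strand) had 2.80, 3.01, 2.50 and 2.72 CPM in HDM, against 2.10, 2.77, 2.84 and 1.91 CPM in saline. The HDM pools lay close together, and saline 1 and saline 4 were lower than all of them. The log2 fold change was 0.20 (SE 0.16, edgeR adjusted p = 0.563; 2.76 ± 0.21 CPM in HDM and 2.41 ± 0.47 CPM in saline), positive in all 23 alternatives, and HDM was higher in 3 of 4 batches. Within HDM the counts, 63 to 79 per library, showed no spread beyond counting error. Their variance was 0.406 times the counting variance, from 4 libraries. The window before its start, chr19:4989972-4990221 on the minus strand, is shown because its 2 CRE cores begin close together, 179 and 169 bases upstream. It lies wholly inside the GENCODE span of the gene.
Npas4: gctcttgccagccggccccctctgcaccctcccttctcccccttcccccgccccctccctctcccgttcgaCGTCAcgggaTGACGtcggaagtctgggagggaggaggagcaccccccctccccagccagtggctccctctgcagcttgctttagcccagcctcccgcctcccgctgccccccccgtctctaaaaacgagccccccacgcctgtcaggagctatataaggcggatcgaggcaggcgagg

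Arc (ENSMUSG00000022602, chromosome 15, 74669083 to 74672570, minus strand) had 3.10, 2.32, 2.46 and 2.79 CPM in HDM, against 3.13, 2.74, 2.33 and 2.08 CPM in saline. Both groups covered almost the same range. Their log2 fold change was 0.06 (SE 0.17, edgeR adjusted p = 0.895; 2.67 ± 0.35 CPM in HDM and 2.57 ± 0.46 CPM in saline), and it rested on 61 to 74 counts per library in HDM and 64 to 86 in saline. At these depths the 95% interval of Arc ran from a fold of 0.81 to 1.34, and after the GC correction the log2 fold change was -0.05.

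Nptx2 (ENSMUSG00000059991, chromosome 5, 144545902 to 144557478, plus strand) had 38.9, 40.4, 40.8 and 40.3 CPM in HDM, against 32.0, 37.3, 40.6 and 42.1 CPM in saline. The HDM pools were almost equal, at 40.1 ± 0.84 CPM, and the saline pools more spread, at 38.0 ± 4.44 CPM, with saline 1 the lowest. The log2 fold change was 0.08 (SE 0.072, edgeR adjusted p = 0.602), but it was close to 0 without saline 1 and -0.03 after the GC correction.

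Whether the genes varied together from pool to pool was asked over the 8 libraries for all 36 pairs of the 9 tested genes. None of the 36 passed after adjustment (exact permutation tests of Pearson's r, 6 pairs at an unadjusted p under 0.05), and 16 of the r values were positive, with a median of -0.04. Egr1 and Egr3 had the highest r, 0.87 (exact permutation p = 0.00915, adjusted p = 0.24), and a Spearman's rho of 0.81 (exact permutation p = 0.0218, adjusted p = 0.335). Both were low in HDM 1, HDM 4 and saline 2 and high in HDM 3 and saline 3, which are libraries of both groups. With group means removed r was 0.87, without single libraries 0.82 to 0.92, and without HDM 1 and saline 2, the libraries farthest from the median of Egr1, 0.66. Within batches 1 to 4 the log2 ratios of HDM to saline were -1.04, 0.43, 0.30 and -0.47 for Egr1, and -0.49, 0.66, -0.09 and -0.32 for Egr3. They had the same sign in batches 1, 2 and 4, and 4 batches are too few for a correlation. Among all other genes, 47 of 17617 had a higher r with Egr1 than Egr3 did.

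Other pairs crossed the families. Nr4a3 had r = 0.73 with Egr2 and 0.72 with Arc (exact permutation p = 0.0378 and 0.0472, adjusted p = 0.272 and 0.273). In both rho was 0.69 (exact permutation p = 0.0694, adjusted p = 0.357). The r with Egr2 was 0.60 without HDM 1 and HDM 2, and that with Arc 0.57 without saline 1 and saline 4. Egr2 and Nr4a1 had a positive value (r = 0.78, exact permutation p = 0.0267, adjusted p = 0.24; rho = 0.74, exact permutation p = 0.0458, adjusted p = 0.357; r = 0.86 without HDM 1 and HDM 2). Arc and Nptx2 had a negative one (r = -0.73, exact permutation p = 0.0208, adjusted p = 0.24; rho = -0.83, exact permutation p = 0.0154, adjusted p = 0.335; r = -0.57 without saline 1 and saline 4). Arc and Egr1, which are often used side by side as markers of activity, had r = -0.33 (exact permutation p = 0.419, adjusted p = 0.793) and rho = -0.19 (exact permutation p = 0.665, adjusted p = 0.907), and r = 0.11 without HDM 1 and saline 2 but -0.74 without saline 1, so it depends on single libraries. Nr4a2 and Nptx2 had r = -0.79 (exact permutation p = 0.0172, adjusted p = 0.24) but rho = -0.33 (exact permutation p = 0.428, adjusted p = 0.811), and r was 0.38 without saline 1 and saline 2, so the relation rests on those libraries.

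**Figure D4:**
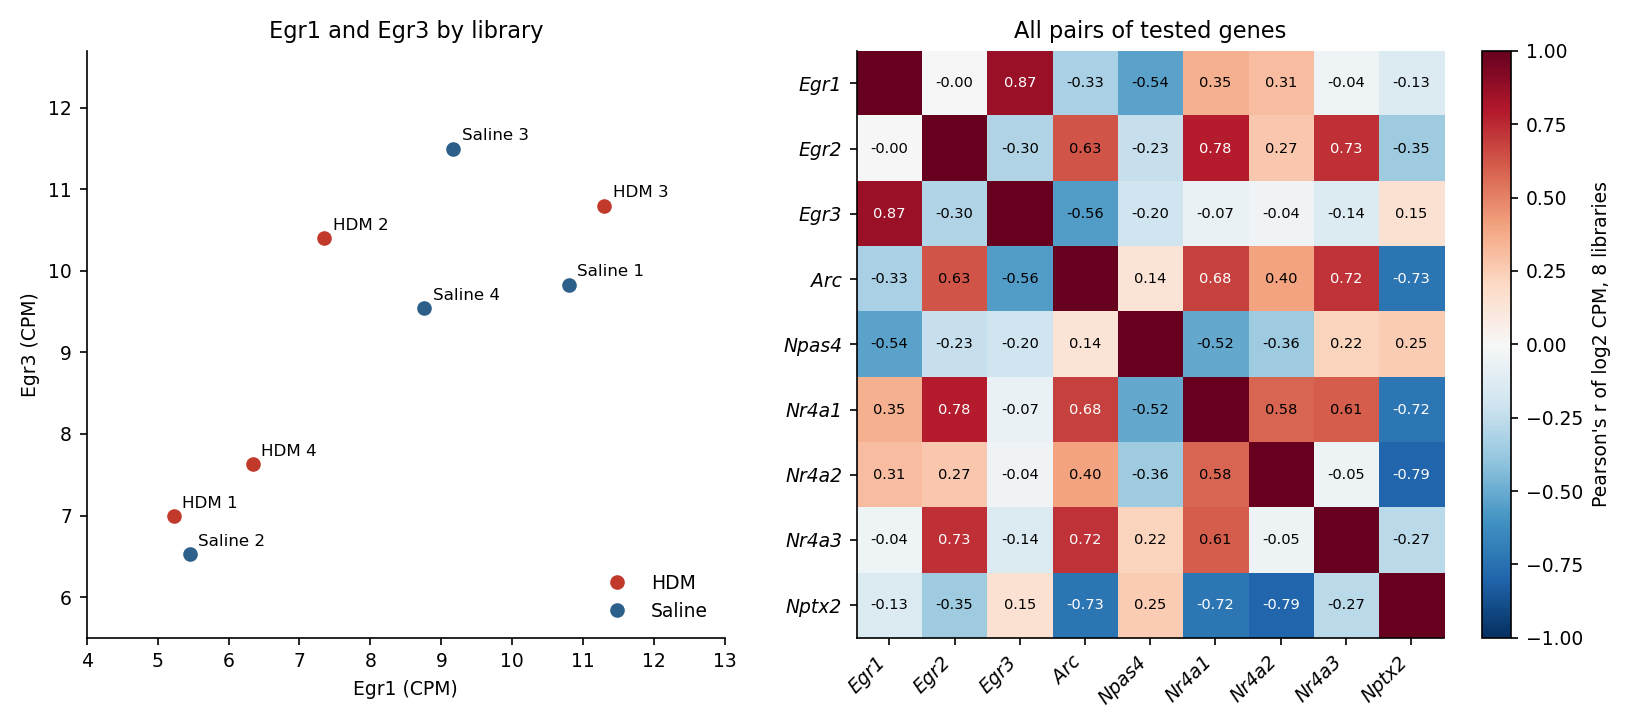
Left, CPM of Egr3 (vertical) against CPM of Egr1 (horizontal), 1 labelled point for each library (red, HDM; blue, saline). Right, Pearson's r of log2 CPM over the 8 libraries for each pair of tested genes. Egr1 and Egr3 have the highest r, 0.87, and Nptx2 has negative values with Arc (-0.73) and Nr4a2 (-0.79). None of the pairs passed after adjustment.

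The genes whose pattern over the 8 libraries was most like that of Egr1, leaving out predicted genes, were Arhgap25, Sema3a, Irak3, Ctdspl2 and Hinfp, with r between 0.918 and 0.934. Sema3a encodes a secreted axon guidance protein and Irak3 an inhibitor of Toll-like and interleukin-1 receptor signalling. Sema3a had 0.921, 1.14, 1.79 and 1.25 CPM in HDM, against 2.32, 0.988, 1.57 and 1.72 CPM in saline. The genes most like the mean standardised pattern of the 9 genes were the long noncoding RNA Fendrr (r = 0.98), Rps25-ps1, Mrpl58, Map2k3, which encodes a kinase that activates p38, and Tpd52l1. These are the highest values among 17618 genes over 8 libraries and are given as a description.

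Genes around the 10 were read from lists of their partners, inducers and fellow responders. Of 81 tested genes on 5 lists, Rxra, Junb and Vgf rose and 0 fell, beside 1.23% higher and 0.159% lower over all genes. With the replicate block 5 rose and 0 fell, adding Camk2b and Ppp1r15a, beside 3.01% higher over all genes, and DESeq2 called 6 higher and 1 lower, beside 5.11% higher and 2.27% lower over all genes it gave an adjusted p.

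Among 7 dimer partners and corepressors, 1 rose and 0 fell. Rxra, the retinoid X receptor that pairs with Nr4a1 and Nr4a2, had 34.5, 30.5, 31.9 and 35.0 CPM in HDM, against 26.2, 27.5, 25.7 and 29.4 CPM in saline. The groups did not overlap, and the log2 fold change was 0.28 (SE 0.064, edgeR adjusted p = 0.0499). The call was at the threshold. It was lost after the GC correction (0.18, adjusted p = 0.281) and on leaving out any one library other than saline 4 (adjusted p = 0.0537 to 0.173), and it was made in 5 of 23 alternatives. After the GC correction, and without HDM 1, HDM 2 or saline 3, 0 of all genes were called. Nab1 and Nab2, corepressors of the Egr factors, had log2 fold changes of 0.01 and 0.02, and Arnt2, the partner of Npas4, 0.03.

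Among 12 relatives and partners of Arc and Nptx2, 0 passed in the group fit of edgeR. There 3 had an unadjusted p under 0.05, as did 3190 of all 17618 genes. DESeq2 called 1, beside 7.38% of all genes it gave an adjusted p, and limma-voom 0, beside 1.21% of all genes. A positive log2 fold change was found in 11 of 12, with a median of 0.06, beside 8551 of all 17618 genes. Camk2b, a calcium-dependent kinase subunit that binds Arc, passed with the replicate block and in DESeq2 (log2 fold change 0.16, edgeR adjusted p = 0.101, and 0.0442 with the block, but 0.11 and 0.23 with block and GC correction). Cacng2, which encodes stargazin, an auxiliary subunit of AMPA receptors that also binds Arc, had 0.32 (edgeR adjusted p = 0.137), and the pentraxin receptor Nptxr 0.13 (edgeR adjusted p = 0.248).

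Among 21 upstream regulators, 0 passed by edgeR, DESeq2 or limma-voom, and 8 had a positive value, beside 8551 of all 17618 genes. The edgeR fit gave 3 of them an unadjusted p under 0.05, as it did 3190 of all 17618 genes. Srf had a log2 fold change of 0.21, while Creb1 and Mef2c, another activity-dependent factor, had -0.14 and -0.12 (edgeR adjusted p = 0.122, 0.158 and 0.25). After the GC correction these were 0.06, -0.05 and -0.03. The 95% interval of Creb1 ran from -0.25 to -0.03 before that correction.

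Among the 28 tested of 29 other rapid response genes, Junb rose and 0 fell. Its log2 fold change was 0.45 (SE 0.075, edgeR adjusted p = 0.0173) in the group fit and 0.31 (adjusted p = 0.158) after the GC correction. Its call was also lost without HDM 1, HDM 2 or saline 3 (adjusted p = 0.0896, 0.0964 and 0.0926), where its log2 fold change was 0.41, 0.45 and 0.43. In these settings and after the GC correction 0 of all genes were called. Ppp1r15a, which encodes a phosphatase subunit that restores translation after stress, had 0.25 (edgeR adjusted p = 0.0537, 0.0294 with the block, 0.177 with block and GC correction). Of the 28 genes 16 had a positive value, with a median of 0.03, beside 8551 of all 17618 genes. DESeq2 called 3 higher and 1 lower, beside 5.11% and 2.27% of all genes it gave an adjusted p. Tiparp had the smallest p among the negative values, with -0.21 (edgeR adjusted p = 0.0678, and -0.13 and 0.404 after the GC correction).

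Among 13 delayed and effector genes, Vgf, the precursor of several secreted peptides, rose and 0 fell. A positive value was found in 10 of 13, with a median of 0.14, beside 8551 of all 17618 genes. Vgf had a log2 fold change of 0.49 (SE 0.10, edgeR adjusted p = 0.0354) in the group fit, and 0.33 (adjusted p = 0.213) after the GC correction. Its call was lost without HDM 1, HDM 2, HDM 4, saline 3 or saline 4 (adjusted p = 0.0984, 0.141, 0.0971, 0.146 and 0.0537). As above, 0 of all genes were called without HDM 1, HDM 2 or saline 3 or after the GC correction. Bdnf and Scg2, which also encode secreted neuronal proteins, had 0.14 and 0.13 (edgeR adjusted p = 0.328 and 0.163). Ptgs2, which encodes an inducible cyclooxygenase, had 0.795, 0.152, 0.556 and 0.34 CPM in HDM, against 1.91, 0.478, 0.445 and 0.519 CPM in saline. Saline 1 stood far above the other 7 libraries, and the log2 fold change was -0.85 (SE 0.55, edgeR adjusted p = 0.432). The summed neuron markers were also higher in every HDM library than in every saline one, with a positive log2 fold change in 4 of the 6. Their relation to Vgf, Junb and Rxra over the libraries was not computed, and their part in these differences was not tested.

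**Figure D5:**
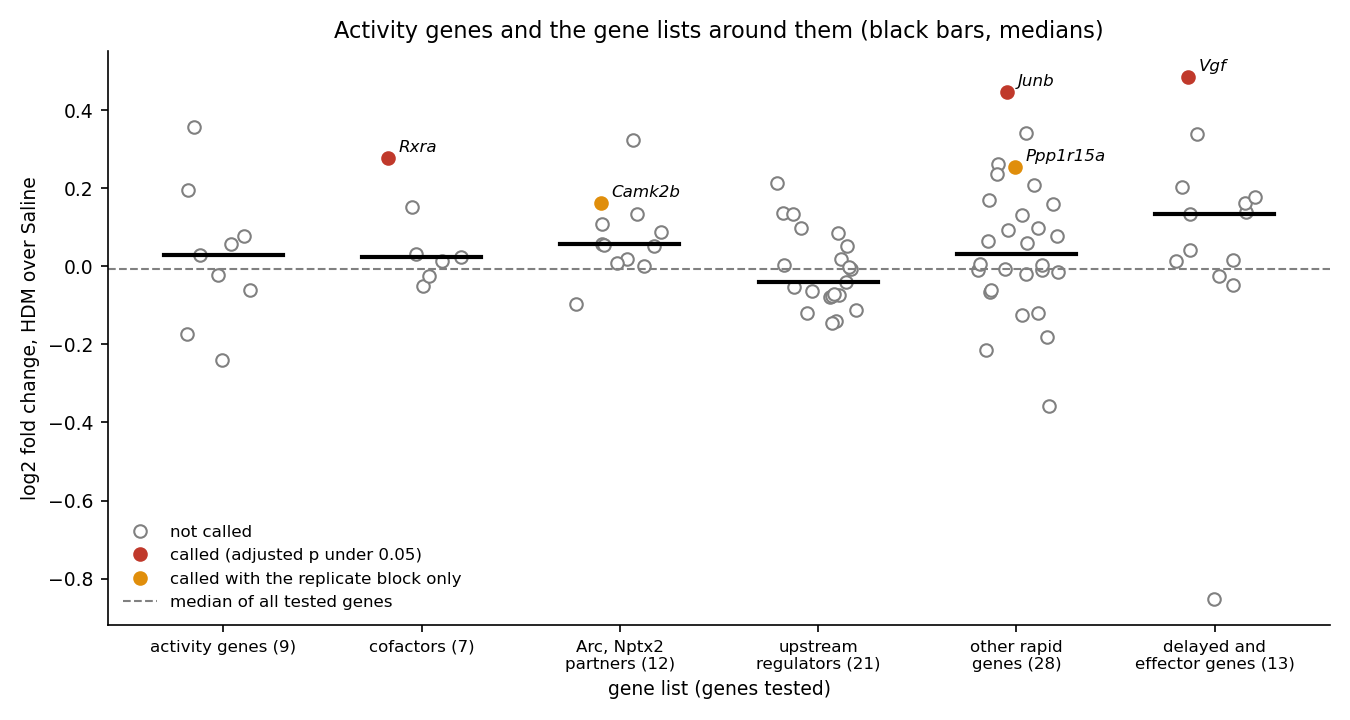
Log2 fold change of HDM over saline (vertical axis) for the 9 tested activity genes and 5 gene lists around them, with 1 point for each gene, black bars for list medians and a dashed line for the median of all tested genes. Filled points are genes called in the group fit (Rxra, Junb and Vgf) or only with the replicate block (Camk2b and Ppp1r15a), and none of the 9 activity genes is filled.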

How the data were processed

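RNA was measured in 8 libraries of mouse vagal ganglia, 4 HDM and 4 saline. Per the labels' protocols, RNA was column-purified, libraries were made with Illumina's stranded mRNA kit and sequenced with paired 50 bp reads. The deposited values are counts per gene, not normalised, made by the authors with featureCounts on GRCm38 (mm10), per the submitters' processing notes. The sources used here do not give the aligner, the versions or whether counting used strand. Columns were assigned by the column names in the labels. The table's gene length column served as other information, to scale levels per kilobase.

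Of 55335 genes, 54899 had the same span in GENCODE M21. The default filterByExpr step of edgeR 4.0.16 in R 4.3.3 (minimum count 10) left 17618 for testing. After TMM scaling the quasi-likelihood test of edgeR was run 2-sided with group as its term, and p-values were adjusted by Benjamini-Hochberg. Intervals are the estimate with its standard error and the fit's t quantile. The labels give a batch equal to the replicate number, so the libraries are paired by label. Deviations of same-numbered libraries correlated by -0.04 to 0.065 over genes.

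Alternatives were the replicate block, a GC correction (per library, log2 CPM against transcript GC by a spline of 4 df), DESeq2 1.42.0, voom of limma 3.58.1, RLE and upper-quartile factors, no filter, a filter of 1 CPM in 4 libraries, a robust dispersion, a threshold of 0.10 and leaving out libraries or batches. Leaving out HDM 4 and saline 1 together, and the comparison of Egr1 and Egr2 with summed markers, were added after seeing the data. Co-variation used log2(CPM + 0.5). The fits were tested on simulated data. The members, lists and tests were chosen with earlier results of these data known. DESeq2 gave no adjusted p for Arc, Npas4 and Nr4a3. Named genes were the 10 members, list genes called in either fit or else the 3 with the smallest p, and the 5 genes most like each pattern. Nab1, Nab2, Arnt2, Bdnf, Scg2, Ptgs2, Cacng2 and Nptxr were added for their roles after their values were seen. Tiparp was added, also after its values were seen, as the gene with the smallest p among the negative values of its list. Marker lists covered neurons (nodose, jugular, sympathetic), myelinating Schwann cells, satellite glia, macrophages, blood and neutrophils, endothelium, fibroblasts and mural cells. Promoters were searched in the 250 bases before each RefSeq start (GRCm38.p6), with 6 of the 10 genes matched. Nothing in the labels says that pools came from separate cohorts, so p-values measure the spread between these pools.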

Additional observations from a re-analysis of the deposited data

Results flagged for a closer look

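Saline 1 had the highest Nr4a1 level of the 4 saline pools, 35.2 CPM, and stood far from the other saline libraries, which had 29.4 to 30.1 CPM. The gap took up 0.878 of the group's range, above Dixon's 95% limit for 4 samples. The HDM pools had 28 to 32.3 CPM. Of 20 groups of 4 libraries examined this was the 1 set apart, and chance flags about 1 in 20. Blood, fibroblast, endothelial and macrophage markers were also highest in saline 1, and their part in the value was not tested.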

How the results depend on the processing

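None of the 9 to 10 tested activity genes passed in edgeR, DESeq2 or limma-voom under any of 24 alternatives, with at most 2 at an unadjusted p under 0.05. Over all genes 2100 to 4232 had an unadjusted p under 0.05 in these settings. Of the 36 pairs, 0 passed in any setting tried. Nr4a2 (-0.315 to -0.156), Npas4 (0.0953 to 0.327) and Nr4a3 (0.221 to 0.509) kept their direction in 23 of 23 alternatives, and the smallest adjusted p was 0.114 for Nr4a2 without saline 4. Egr1 changed sign in 2 of 23 alternatives and ranged more widely, from -0.431 without HDM 3 to 0.0946 without batch 1. The other 5 tested genes also changed sign in places, with Egr3 reaching -0.281 without batch 2, and the cause was not tested. With the replicate block and GC correction together they were -0.0032 for Egr2, -0.0499 for Arc and -0.0234 for Nptx2, and with the GC correction alone -0.0529 for Arc and -0.0318 for Nptx2. Leaving out batch 1 gave 0.0946 for Egr1, -0.0294 for Egr2, 0.064 for Egr3 and 0.0211 for Nr4a1. Without batch 2 Nr4a1 had 0.00228, without batch 3 Egr2 had -0.0296, and without batch 4 Egr3 had 0.0168 and Arc -0.0598. Leaving out HDM 4 and saline 1 together gave 0.0336 for Egr1, 0.0353 for Egr3 and 0.0426 for Nr4a1. When single libraries were left out, the log2 fold change ran from -0.431 to -0.0371 for Egr1, -0.0786 to 0.136 for Egr2, -0.203 to 0.0553 for Egr3, -0.0361 to 0.157 for Arc, -0.0489 to 0.0352 for Nr4a1 and -0.000125 to 0.127 for Nptx2.

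Over all genes, edgeR called 244 genes in the group fit and 713 with the replicate block, 40 with block and GC correction, 0 with the GC correction (2100 at an unadjusted p under 0.05), 722 with no filter and 709 at an adjusted p under 0.10, and DESeq2 called 871. The robust dispersion gave 366. Leaving out 1 library gave 0 to 376 (0 without HDM 1, HDM 2 or saline 3, where 2373 to 2452 genes had an unadjusted p under 0.05), leaving out batches 1 to 4 gave 5, 0, 24 and 4, and leaving out HDM 4 and saline 1 gave 135. Of the 81 genes on the 5 lists, 3 were called in the group fit, 5 with the block, 0 with block and GC correction, 0 with the GC correction, 5 with no filter, 7 by DESeq2 and 5 at 0.10. Leaving out 1 library gave 0 to 4 of them, any 1 batch 0, and HDM 4 and saline 1 together 1. With all 4 pools a group, Egr4 (5 to 16 counts a library) fell below the filter and was not tested. It passed the filter without HDM 1, without any 1 saline library and without batch 1. In each of these settings all 10 activity genes were tested and 0 passed, and the fold changes of Egr4 there are not given.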
